A study of Mus musculus with 30 samples.

Results

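The effect of CDDO-Me was examined in livers in which the route from the KEAP1 sensor cysteine for this drug to NRF2 is broken at one end or the other, by pooling 2 genotypes. These are C151S mice, which carry serine in place of that cysteine, and Nrf2-knockout mice. The libraries were chosen by genotype alone and make up 20 of the 30 in the series, with 5 CDDO-Me and 5 vehicle livers of each genotype, so that 10 treated livers were compared with 10 vehicle livers with genotype as a covariate. All mice were males of 7 to 10 weeks of C57BL/6J made albino (strain B6(Cg)-Tyr c-2J/J), and received 1 oral dose of CDDO-Me at 30 µmol/kg or of the vehicle (10% DMSO and 10% Cremophor-EL in PBS) 24 hours before the liver was taken. The C151S mice studied, like their parents, were homozygous, and both lines carry their change in the whole body. C151S mice were made by genome editing with CRISPR-Cas9 and still hold NRF2, and Nrf2-knockout mice still hold wild-type KEAP1 with its cysteine. The 10 wild-type livers took no part in the pooled comparison and are given beside it.

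CDDO-Me (bardoxolone methyl) is a synthetic triterpenoid with an electrophilic group that reacts with thiols. KEAP1 marks the transcription factor NRF2 for breakdown by the proteasome, and electrophiles that modify its sensor cysteines let NRF2 accumulate and switch on detoxification genes through the antioxidant response element. Triterpenoids also react with other proteins, and a liver that meets an inflammatory or proteotoxic signal makes acute phase proteins under STAT3 and chaperones of the endoplasmic reticulum. Hepatocytes of the adult liver rarely divide, so that genes of mitosis are expressed at a low level there.

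Between 27785049 and 42073169 counts fell on genes in the 20 mutant libraries, and 15020 genes passed the expression filter. The hepatocyte list was high in every library (Alb, the plasma protein albumin, at 48416 to 122667 CPM, counts scaled to the normalized library size). Of the defining markers of other liver cells, Ly6g of neutrophils, Gata1 of red cell precursors, and Sct of bile ducts did not exceed the floor of 3 counts in any of the 20 libraries. Most other markers of these cells did. Only 1 of 10 neutrophil, 1 of 13 erythroid, and 2 of 9 cholangiocyte markers were never above the floor. Nfe2l2, which encodes NRF2, stood at 66.0 to 84.9 CPM in vehicle-treated C151S livers and at 29.5 to 39.8 CPM in vehicle-treated Nrf2-knockout livers, and a gene total cannot show which part of the gene is missing. The pooled ratio of CDDO-Me to vehicle for Nfe2l2 was 0.80. Its treated livers lay below every vehicle liver of the genotype in 1 C151S, 5 Nrf2-knockout and 5 wild-type cases. The base change of C151S cannot be seen in gene counts, and Keap1 had a pooled log2 fold change of 0.17 (adjusted p = 0.324, edgeR's quasi-likelihood test). The NRF2 target Nqo1, a quinone reductase, stood at 6.30 to 7.34 CPM after vehicle and 5.56 to 8.11 CPM after CDDO-Me in C151S livers, and at 1.31 to 2.72 and 1.88 to 3.41 CPM in Nrf2-knockout livers. CDDO-Me-treated C151S replicate 1 and CDDO-Me-treated Nrf2-knockout replicate 2 stood apart from the other treated mutants by their acute phase genes. The main values that rest on them are given with and without both. The mutant livers also split by the clock gene Arntl, with 9 livers at 5.69 to 26.4 CPM and 11 at 0.390 to 1.81 CPM, and with 2 or 3 of the 5 livers of each group on either side, whereas the 10 wild-type livers stood at 9.53 to 27.7 CPM. Both livers that stood apart are on the high side of Arntl, at 12.8 and 16.8 CPM. Fits without both therefore also change the balance of this split between treated and vehicle livers. The part of this split in the results with wild-type livers was not tested.

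In the pooled livers 40 genes passed edgeR's quasi-likelihood test (Benjamini-Hochberg adjusted p under 0.05, with a log2 fold change of 0.5 or more in size) and are termed called. CDDO-Me raised 10 genes (0.0666% of those tested) and lowered 30 genes (0.200%). Genes of secreted acute phase proteins, chaperones of the endoplasmic reticulum, and the chemokine Cxcl1 were among the 10 that rose, and 17 of the 30 that fell belong to a list of mitosis and spindle genes. At an unadjusted p under 0.05, 1540 genes were higher (10.3%) and 1212 lower (8.07%). The number of calls depended on single livers. All 40 genes, as far as they were tested, kept their direction in all 32 other fits, including each of the 20 fits without 1 liver. These fits reuse the livers that chose the genes, so that a kept direction is no independent support for the calls. The number of genes called fell to 0 without CDDO-Me-treated C151S replicate 5 and to 7 without CDDO-Me-treated C151S replicate 1. It was 1 without vehicle-treated Nrf2-knockout replicate 2, 3 without vehicle-treated C151S replicate 1 or 3 or vehicle-treated Nrf2-knockout replicate 3, 4 without vehicle-treated C151S replicate 2, 10 without vehicle-treated Nrf2-knockout replicate 4, 12 without CDDO-Me-treated Nrf2-knockout replicate 2 and 22 without CDDO-Me-treated Nrf2-knockout replicate 1. It was 234 without CDDO-Me-treated C151S replicate 2, 96 without CDDO-Me-treated Nrf2-knockout replicate 3 and 85 without CDDO-Me-treated Nrf2-knockout replicate 5. Without both livers that stood apart, 2 genes were called, Veph1 and Ccnb1. Without any 1 of the remaining 7 livers, 32 to 58 genes were called.

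**Figure D1:**
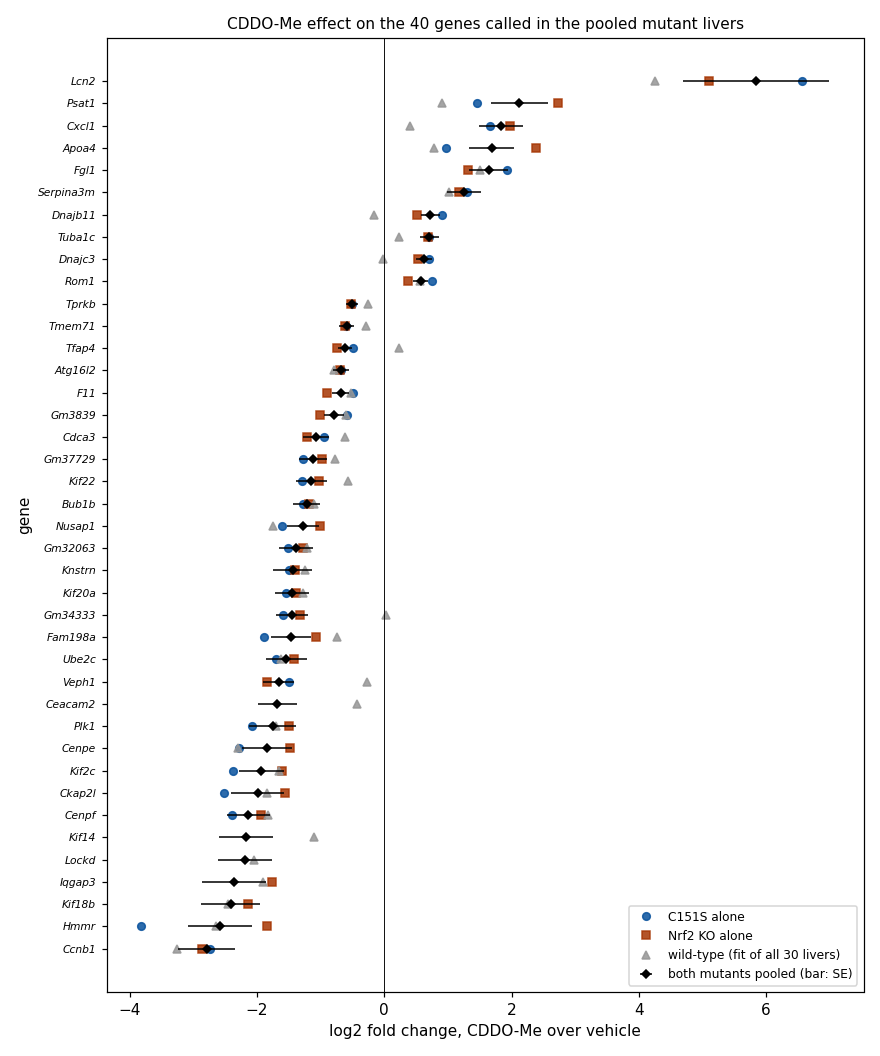
Log2 fold change of CDDO-Me over vehicle (x axis) for the 40 genes called in the pooled mutant livers (y axis), in both mutants pooled (diamonds, bar = SE), in C151S and in Nrf2-knockout livers alone (missing where the gene did not pass the filter), and in wild-type livers. The 35 genes with a value in each mutant lie on the same side of 0 in both, which the choice of genes by the pooled fit favours. Dnajb11, Dnajc3, Tfap4 and Gm34333 lie near 0 or on the other side in wild-type.

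Acute phase proteins are secreted by hepatocytes, largely under interleukin-6 and STAT3. Of 28 such genes tested, 3 rose (Lcn2, Fgl1, and Serpina3m), none fell, and all 28 had a positive log2 fold change, with a median of 0.95 against -0.01 over all genes tested. Over all genes, 7311 of 15020 had a positive log2 fold change. At an unadjusted p under 0.05, 26 of the 28 were higher, where 10.3% of all genes were. Lcn2 (ENSMUSG00000026822.14, chromosome 2, 32384633 to 32388252 in GRCm38, as all positions here) encodes lipocalin 2, a secreted protein that binds bacterial siderophores. In C151S livers it stood at 2.84, 4.34, 5.87, 9.50 and 6.59 CPM after vehicle and at 2589, 35.9, 34.1, 12.3 and 78.1 CPM after CDDO-Me (replicates 1 to 5). Nrf2-knockout livers had 16.3, 4.19, 19.3, 17.3 and 4.31 CPM after vehicle and 22.5, 2012, 77.2, 7.79 and 36.4 CPM after CDDO-Me. Every treated C151S liver and 4 of 5 treated Nrf2-knockout livers lay above all vehicle livers of their genotype, and 1 liver of each genotype was far above the rest. Lcn2 changed by 5.84 ± 1.15 log2 units (SE), at an adjusted p of 0.0329 in edgeR's quasi-likelihood test, and by 2.16 without both livers that stood apart, where the call was lost.

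Fgl1 (ENSMUSG00000031594.9, chromosome 8, 41191434 to 41215156) encodes fibrinogen-like protein 1, a hepatokine. It stood at 280.3, 361, 441, 283 and 251 CPM in vehicle-treated and 3263, 833, 791, 389 and 919.9 CPM in CDDO-Me-treated C151S livers. Values of Nrf2-knockout livers were 325, 339, 323, 574 and 303 CPM after vehicle and 664, 1740.1, 605, 598 and 1108 CPM after CDDO-Me. The groups did not overlap in Nrf2-knockout livers, and 1 treated C151S liver lay within the vehicle range. For Fgl1 the pooled log2 fold change came to 1.64 with an SE of 0.31 (adjusted p = 0.0329, edgeR's quasi-likelihood test) and 1.08 without both livers that stood apart. Serpina3m (ENSMUSG00000079012.11, chromosome 12, 104338486 to 104394257), a serine protease inhibitor of a family of close copies, rose by 1.25 log2 units with an SE of 0.27 (adjusted p = 0.0477). Its vehicle and treated ranges were 178 to 283 and 236 to 1175 CPM in C151S and 162 to 249 and 294 to 1090.1 CPM in Nrf2-knockout livers, and the log2 fold change without both livers that stood apart was 0.70, which no longer passed, as for Fgl1. Because only reads with 1 position were counted, Serpina3m is counted in part.

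Further acute phase genes, chosen after their values were seen, had large fold changes that did not pass the test and varied strongly among treated mice. Their families hold near-identical copies, so that Saa1, Saa2, and Orm2 are also counted in part. Saa2, a serum amyloid A protein, stood at 18502, 139.9, 77.7, 19.1 and 423 CPM in treated C151S livers and at 41.6, 6323, 268, 13.9 and 58.0 CPM in treated Nrf2-knockout livers, against 15.8 to 54.5 and 13.1 to 203 CPM after vehicle. The treated livers of both genotypes overlapped the vehicle livers. The log2 fold change was 5.61 (adjusted p = 0.0695, edgeR's quasi-likelihood test) with all livers and 1.46 without both that stood apart. In the same order the 2 log2 fold changes were 4.15 and 1.51 for Saa1, 3.70 and 0.76 for Orm2 (orosomucoid), and 2.21 and 0.94 for Apcs (serum amyloid P), the 1 gene of this list whose treated livers lay above the vehicle livers in all 10 cases. Over all genes tested, 4 (0.0266%) were separated upward in both genotypes. For the whole list the median without both livers was 0.40, and 19 of 28 genes were then higher at an unadjusted p under 0.05. The summed level of the list was 24718 to 33226 CPM in vehicle-treated and 31365 to 196049 CPM in treated C151S livers, and 29953 to 36594 and 29914 to 116138 CPM in Nrf2-knockout livers. 

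Cxcl1 (ENSMUSG00000029380.11, chromosome 5, 90891241 to 90893115), a chemokine that draws neutrophils, was the 1 gene called by edgeR's quasi-likelihood test among 25 tested on a list of NF-κB targets and chemokines (DESeq2 called 2 higher and 2 lower), whose median was -0.10. It stood at 12.4, 11.1, 19.9, 6.38 and 13.8 CPM after vehicle and 107, 39.5, 25.1, 13.7 and 17.6 CPM after CDDO-Me in C151S livers. In Nrf2-knockout livers it stood at 10.51, 6.81, 8.33, 4.19 and 8.49 and 20.6, 42.7, 51.0, 8.72 and 29.7 CPM. In 7 of the 10 treated livers it was above every vehicle liver of the genotype, and the groups overlapped in both genotypes. In both genotypes together Cxcl1 changed by 1.83 log2 units, SE 0.35 (adjusted p = 0.0329, edgeR's quasi-likelihood test) and by 1.38 without both livers that stood apart. The summed level of 10 neutrophil markers, whose part in this result was not tested, was 1.46 to 6.59 and 2.46 to 21.05 CPM in vehicle-treated and treated C151S livers and 2.73 to 14.7 and 2.36 to 13.1 CPM in Nrf2-knockout livers. Of these markers Ly6g was never above the floor, whereas S100a9 and Csf3r were above it in all 20 libraries.

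**Figure D2:**
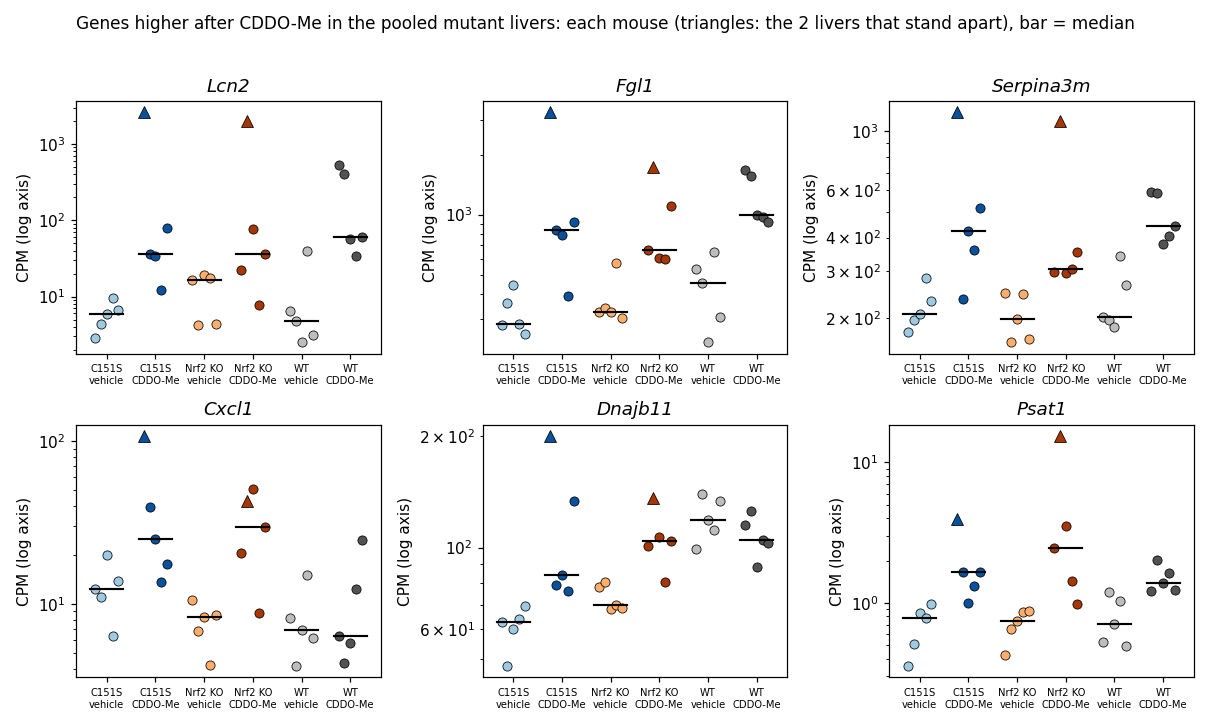
CPM in each liver (y axis, log scale) of 6 genes that rose in the pooled mutants, by genotype and treatment (x axis, 5 mice a group, WT = wild-type, KO = knockout), with the median as a bar and the 2 livers that stood apart as triangles. Both triangles are far above the other treated livers for Lcn2, and the treated medians lie above the vehicle medians in both mutants for all 6 genes, while Cxcl1 and Dnajb11 show no such shift in wild-type.

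Of 30 genes of the endoplasmic reticulum stress response and of the amino acid response factor ATF4 tested, 3 rose (Dnajc3, Dnajb11, and Psat1), none fell, and 28 had a positive log2 fold change, with a median of 0.51. At an unadjusted p under 0.05, 18 were higher, where 10.3% of all genes were. Dnajb11 (ENSMUSG00000004460.17, chromosome 16, 22857845 to 22879634) and Dnajc3 (ENSMUSG00000022136.8, chromosome 14, 118937976 to 118981697) encode co-chaperones of BiP in the endoplasmic reticulum. Dnajb11 stood at 62.7, 47.7, 60.2, 64.0 and 69.4 CPM after vehicle and 200.4, 79.3, 84.4, 76.1 and 134 CPM after CDDO-Me in C151S livers. Nrf2-knockout livers had 78.1, 80.7, 68.0, 70.0 and 68.5 and 101, 136, 107, 80.8 and 104 CPM. The treated livers did not overlap the vehicle livers in either genotype, although in Nrf2-knockout livers the gap was as small as that between 80.7 and 80.8 CPM. Pooled, this gave 0.73 ± 0.15 (SE) as log2 fold change of Dnajb11 (adjusted p = 0.0434, edgeR's quasi-likelihood test). Dnajc3 rose by 0.62 ± 0.13 (SE, adjusted p = 0.0379), with 144 to 216 and 215 to 448 CPM in C151S and 137 to 171 and 195 to 302 CPM in Nrf2-knockout livers. Without both livers that stood apart the log2 fold changes were 0.52 and 0.46, neither passed, and the median of the list was 0.32.

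Psat1 (ENSMUSG00000024640.9, chromosome 19, 15904678 to 15947337), phosphoserine aminotransferase of serine synthesis and a known target of ATF4, was expressed at a low level. In C151S livers it stood at 0.355, 0.509, 0.842, 0.781 and 0.985 CPM after vehicle and 3.97, 1.67, 1.004, 1.33 and 1.67 CPM after CDDO-Me. Values of Nrf2-knockout livers were 0.428, 0.650, 0.739, 0.858 and 0.876 and 2.47, 15.4, 3.52, 1.43 and 0.974 CPM. The groups did not overlap in either genotype, although the gaps were small. They lay between 0.985 and 1.004 CPM in C151S livers (36 and 32 counts). In Nrf2-knockout livers they lay between 0.876 and 0.974 CPM (26 and 33 counts). Psat1 changed by 2.12 ± 0.44 log2 units (SE), at an adjusted p of 0.0434 in edgeR's quasi-likelihood test, and by 1.29 without both livers that stood apart, where it no longer passed. Among genes chosen after their values were seen, the chaperones Pdia6, Hyou1, and Sdf2l1 had log2 fold changes of 0.61, 0.83, and 1.02, and Derl3, which serves the export of misfolded proteins from the endoplasmic reticulum, one of 2.99 (adjusted p = 0.0517) and of 2.10 without both livers that stood apart. Derl3 stood at 0.255 to 1.18 CPM after vehicle and 1.35 to 51.2 CPM after CDDO-Me in C151S livers, which did not overlap. Treated Nrf2-knockout replicates 4 and 5, at 2.12 and 2.57 CPM, lay within the vehicle range of 0.627 to 2.65 CPM.

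No gene of cytosolic chaperones, the proteasome or the ribosome was called by edgeR's quasi-likelihood test, although most had a small positive log2 fold change. Over all genes tested, 7311 of 15020 were positive, and 10.3% were higher at an unadjusted p under 0.05. Of 33 proteasome subunits tested, all had a positive log2 fold change, with a median of 0.20, and 26 were higher at an unadjusted p under 0.05. Psmd13, a subunit of the regulatory particle, had the lowest p, with 49.8 to 66.7 and 61.2 to 95.1 CPM in C151S and 55.6 to 73.9 and 59.96 to 95.7 CPM in Nrf2-knockout livers (log2 fold change 0.39, adjusted p = 0.0669). Of 19 cytosolic heat shock genes, 18 were positive, with a median of 0.29, and 8 were higher at an unadjusted p under 0.05. Hspb8, a small heat shock protein, had the lowest p (0.50 log2 units, SE 0.12, adjusted p = 0.0564). Of 86 ribosomal protein genes, a family chosen after its values were seen, 78 were positive, with a median of 0.37, and 74 were higher at an unadjusted p under 0.05. Without both livers that stood apart the medians were 0.16 for the proteasome, 0.37 for heat shock genes, and 0.25 for ribosomal proteins. DESeq2 called 1 heat shock and 2 ribosomal protein genes higher, and in edgeR fits without 1 liver at most 2 heat shock genes and 11 ribosomal protein genes were called, both without CDDO-Me-treated C151S replicate 2.

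The remaining 3 genes that rose belong to no list. Apoa4 (ENSMUSG00000032080.6, chromosome 9, 46240696 to 46243459), an apolipoprotein of triglyceride-rich particles, stood at 90.6, 156, 129, 92.1 and 189.9 CPM after vehicle and 206, 292, 67.7, 433 and 288 CPM after CDDO-Me in C151S livers. In Nrf2-knockout livers it stood at 94.3, 151.2, 130.4, 117 and 69.9 and 300.4, 1057, 1032, 261 and 334 CPM. The groups were apart in Nrf2-knockout livers, whereas in C151S livers treated replicate 3 was the lowest of all 10. For Apoa4 the pooled log2 fold change came to 1.69 with an SE of 0.35 (adjusted p = 0.0434, edgeR's quasi-likelihood test) and 1.57 without both livers that stood apart. Tuba1c, an α-tubulin, rose by 0.71 ± 0.15 and Rom1, a tetraspanin best known from photoreceptors, by 0.57 ± 0.12 log2 units (SE, with 0.0434 as adjusted p for both). In each of them 9 of 10 treated livers were above all vehicle livers of their genotype.

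Genes of mitosis make up the largest group among those that fell. Of 63 mitosis and spindle genes tested (of 65 listed) 17 fell, none rose, and 61 had a negative log2 fold change, with a median of -1.32. At an unadjusted p under 0.05, 56 were lower, where 8.07% of all genes were. The median was -1.42 in C151S livers alone, -1.004 in Nrf2-knockout livers alone, -1.25 without both livers that stood apart, and between -1.49 and -1.16 without any 1 liver. The number called varied more, with 1 without both livers that stood apart. Without 1 liver it was 0 (CDDO-Me-treated C151S replicate 5 or vehicle-treated Nrf2-knockout replicate 2) to 40 (CDDO-Me-treated Nrf2-knockout replicate 3). Most of these genes were low in this tissue, and where at least 10 counts were asked of every library, 23 of them were tested, with a median of -0.74 and 2 called. With DESeq2, 40 of the 63 were called lower. The summed level of the list was 119 to 167 CPM after vehicle and 68.7 to 95.4 CPM after CDDO-Me in C151S livers, which did not overlap, and 104 to 237 and 94.1 to 162 CPM in Nrf2-knockout livers, which did. In bulk liver fewer cells of a type, here dividing cells, and less RNA of these genes per cell cannot be told apart.

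The promoters of 6 called genes are shown, 4 of mitosis genes and 2 of co-chaperones, as examples of the genes that fell and of those that rose. They are RefSeq windows of 300 bases (build GRCm38.p6), from 250 before to 50 after the gene start, 5′ to 3′ on the strand of the gene. Capitals mark the cell cycle homology region (CHR, TTTGAA, or its variant TTCGAA) and the CCAAT box on either strand in the mitosis genes, and the CCAAT box in the co-chaperones (read as TTCAAA and ATTGG where the motif lies on the other strand). Of the mitosis genes shown, Ccnb1 holds no CHR, the others hold 1 TTTGAA each, and Bub1b also holds the variant. The windows are chr13:100786437-100786736 (minus strand) for Ccnb1, chr7:122159185-122159484 (plus strand) for Plk1, chr2:118597961-118598260 (plus strand) for Bub1b, chr2:164769679-164769978 (plus strand) for Ube2c, chr16:22857595-22857894 (plus strand) for Dnajb11 and chr14:118937682-118937981 (plus strand) for Dnajc3.
Ccnb1: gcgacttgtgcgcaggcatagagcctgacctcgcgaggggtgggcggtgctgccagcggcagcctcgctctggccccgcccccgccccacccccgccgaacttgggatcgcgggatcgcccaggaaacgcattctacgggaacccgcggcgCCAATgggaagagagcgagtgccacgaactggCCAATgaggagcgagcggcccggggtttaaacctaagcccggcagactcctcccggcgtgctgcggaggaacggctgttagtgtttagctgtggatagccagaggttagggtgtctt
Plk1: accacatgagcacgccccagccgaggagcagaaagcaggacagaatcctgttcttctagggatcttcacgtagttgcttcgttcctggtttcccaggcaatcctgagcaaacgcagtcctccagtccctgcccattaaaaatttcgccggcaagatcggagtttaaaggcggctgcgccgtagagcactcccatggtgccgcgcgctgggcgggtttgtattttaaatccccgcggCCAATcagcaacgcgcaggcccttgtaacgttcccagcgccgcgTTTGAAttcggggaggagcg
Bub1b: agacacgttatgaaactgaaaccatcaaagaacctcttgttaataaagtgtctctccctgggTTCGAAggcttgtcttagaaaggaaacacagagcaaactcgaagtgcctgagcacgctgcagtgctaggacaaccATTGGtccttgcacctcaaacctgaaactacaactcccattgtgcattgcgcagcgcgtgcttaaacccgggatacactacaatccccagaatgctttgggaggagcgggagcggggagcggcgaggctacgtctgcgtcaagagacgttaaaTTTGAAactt
Ube2c: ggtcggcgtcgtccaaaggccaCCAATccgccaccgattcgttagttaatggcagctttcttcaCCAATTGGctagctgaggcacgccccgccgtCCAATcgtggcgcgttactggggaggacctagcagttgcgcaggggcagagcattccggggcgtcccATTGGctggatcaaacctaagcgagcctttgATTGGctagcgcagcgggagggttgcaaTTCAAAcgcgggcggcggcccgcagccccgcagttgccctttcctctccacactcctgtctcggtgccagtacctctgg
Dnajb11: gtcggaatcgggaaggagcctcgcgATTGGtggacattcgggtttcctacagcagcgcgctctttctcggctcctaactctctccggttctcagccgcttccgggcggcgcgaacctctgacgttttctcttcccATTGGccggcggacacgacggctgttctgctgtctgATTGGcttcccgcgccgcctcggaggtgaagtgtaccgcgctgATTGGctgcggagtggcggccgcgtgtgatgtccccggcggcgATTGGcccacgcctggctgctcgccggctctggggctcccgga
Dnajc3: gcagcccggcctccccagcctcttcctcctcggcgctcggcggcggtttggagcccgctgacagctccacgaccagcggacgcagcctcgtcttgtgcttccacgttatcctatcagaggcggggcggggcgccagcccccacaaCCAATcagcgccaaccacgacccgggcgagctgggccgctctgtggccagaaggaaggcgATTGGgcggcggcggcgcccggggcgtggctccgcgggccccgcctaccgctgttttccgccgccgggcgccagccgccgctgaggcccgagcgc

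Promoter windows were matched by symbol for 16 of the 17 mitosis genes that fell, and 12 of the 16 windows (75%) held TTTGAA and 12 held CCAAT. Of all 63 mitosis genes tested, 56 matched with 60 windows, of which 68.3% held TTTGAA, 8.33% held TTCGAA, and 66.7% held CCAAT. Over all genes tested, 11031 matched with 14119 windows, and the shares were 12.5%, 1.95%, and 37.5%. CCAAT was also in 71.9% of the 32 windows of endoplasmic reticulum stress and ATF4 genes and in 16% of the 25 windows of acute phase genes. The antioxidant response core TGACNNNGC was in 22.2% of the 9 windows of genes that rose (8 of 10 matched), 11.5% of the 26 windows of genes that fell (24 of 30 matched), and 14.1% of all windows. In the same order the shares were 33.3%, 46.2%, and 59.2% for the metal response core TGCNCNC, 22.2%, 11.5%, and 19.7% for the GC box GGGGCGGGG, 0%, 3.85%, and 9.53% for the E-box CACGTG, and 0%, 0%, and 3.97% for the AP-1 site TGACTCA. An AP-1 site followed by GC also counts as an antioxidant response core. These matches of letters are a description, with no test.

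Ccnb1 (ENSMUSG00000041431.16, chromosome 13, 100778650 to 100786570) encodes cyclin B1, which drives entry into mitosis with CDK1. In C151S livers it stood at 1.32, 0.779, 0.945, 0.521 and 0.958 CPM after vehicle and 0.0339, 0.128, 0.282, 0.0848 and 0.135 CPM after CDDO-Me, which are 16 to 41 and 1 to 9 counts. Nrf2-knockout livers had 0.241, 2.67, 0.978, 1.45 and 0.303 and 0.0266, 0.363, 0.0958, 0.0695 and 0.207 CPM, with 9 to 111 and 1 to 15 counts. Of the 10 treated livers 9 lay below every vehicle liver of their genotype. In both genotypes together Ccnb1 changed by -2.79 log2 units, SE 0.44 (adjusted p = 0.0168, edgeR's quasi-likelihood test) and by -2.98 without both livers that stood apart. Cenpf (ENSMUSG00000026605.14, chromosome 1, 189640606 to 189688086), a kinetochore protein, stood at 1.97, 1.20, 1.35, 0.390 and 1.29 and 0.136, 0.307, 0.314, 0.226 and 0.189 CPM in vehicle-treated and treated C151S livers. Values of Nrf2-knockout livers were 0.535, 2.72, 1.76, 1.35 and 0.371 and 0.159, 0.363, 0.503, 0.348 and 0.413 CPM. The groups were apart in C151S livers and overlapped in Nrf2-knockout livers, in which vehicle replicates 1 and 5 were low. Pooled, this gave -2.13 ± 0.34 (SE) as log2 fold change of Cenpf (adjusted p = 0.0168).

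Bub1b (ENSMUSG00000040084.9, chromosome 2, 118598211 to 118641591), a kinase of the spindle checkpoint, stood at 1.91, 1.59, 1.66, 1.01 and 1.34 CPM after vehicle and 0.271, 1.08, 0.628, 0.678 and 0.431 CPM after CDDO-Me in C151S livers. In Nrf2-knockout livers it stood at 1.26, 2.60, 2.24, 1.91 and 1.48 and 0.532, 0.774, 1.17, 0.626 and 1.09 CPM. The groups were apart in Nrf2-knockout livers, and 1 treated C151S liver overlapped. Bub1b changed by -1.22 ± 0.21 log2 units (SE), at an adjusted p of 0.0312 in edgeR's quasi-likelihood test. The kinesins Kif2c, Kif20a, Kif18b, Kif14, and Kif22, motors of the spindle and chromosomes, had log2 fold changes of -1.93, -1.45, -2.41, -2.17, and -1.14. The mitotic kinase Plk1 fell by 1.75, the kinetochore motor Cenpe by 1.84, and Ube2c, the ubiquitin-conjugating enzyme of the anaphase-promoting complex, by 1.54 on the log2 scale. The other 6 that fell were the spindle proteins Hmmr (-2.58), Nusap1 (-1.28), Ckap2l (-1.99), and Knstrn (-1.44), the cell division gene Cdca3 (-1.07), and the scaffold Iqgap3 (-2.36). The adjusted p of these 14 genes was between 0.0329 and 0.0477. Mki67, the proliferation antigen Ki-67, and Cdc20, an activator of the anaphase-promoting complex, did not pass the test and were chosen after their values were seen, with log2 fold changes of -1.58 and -2.02. Pttg1 and Mybl2 were the 2 genes of the list with a positive value, at 0.11 and 0.19.

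**Figure D3:**
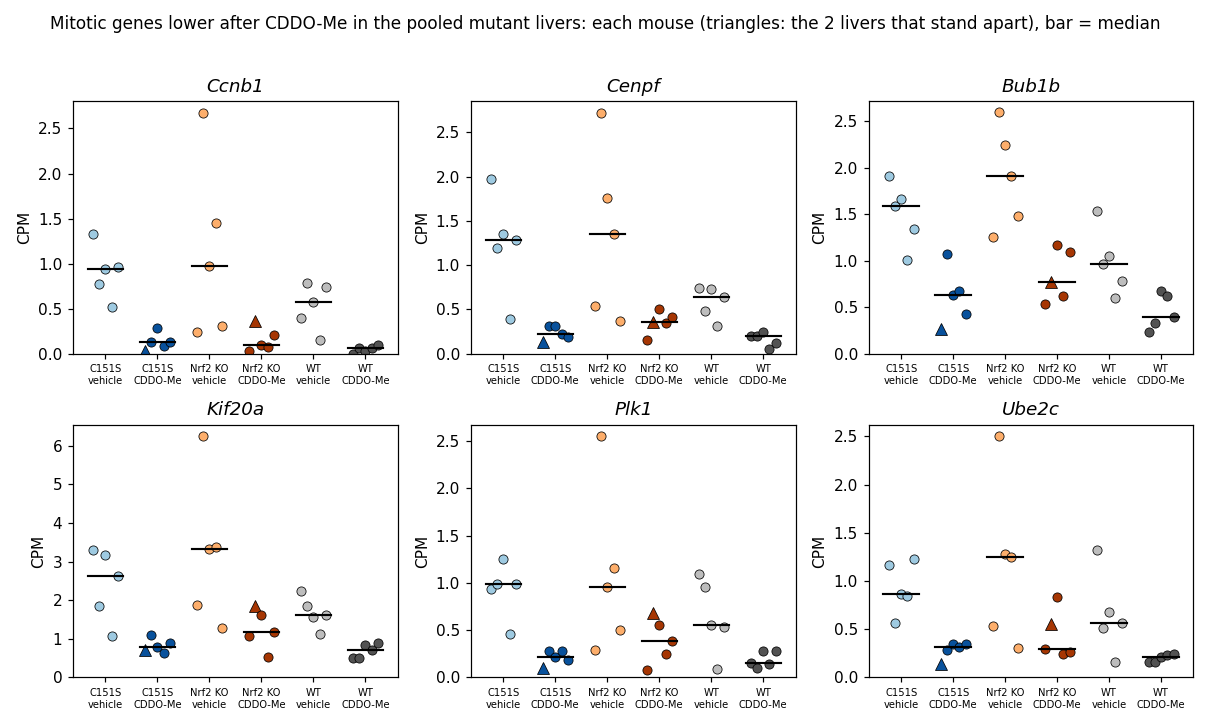
CPM in each liver (y axis, from 0) of 6 mitosis genes that fell in the pooled mutants, by genotype and treatment (x axis, 5 mice a group, WT = wild-type, KO = knockout), with the median as a bar and the 2 livers that stood apart as triangles. The treated medians lie below the vehicle medians in all 3 genotypes. Points of treated and vehicle livers overlap in both mutants for Kif20a and in 1 mutant for Ccnb1, Cenpf, Bub1b, Plk1, and Ube2c.

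Of 46 genes of DNA replication and the entry into S phase none was called by edgeR's quasi-likelihood test and 1 by DESeq2, 2 were lower at an unadjusted p under 0.05, and their median was -0.09 (-0.28 in C151S and 0.13 in Nrf2-knockout livers). Ccna2 (cyclin A2), on this list, had the lowest p, at -1.19 log2 units (SE 0.28, adjusted p = 0.0564, edgeR's quasi-likelihood test). The difference between the 2 lists was not tested.

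**Figure D4:**
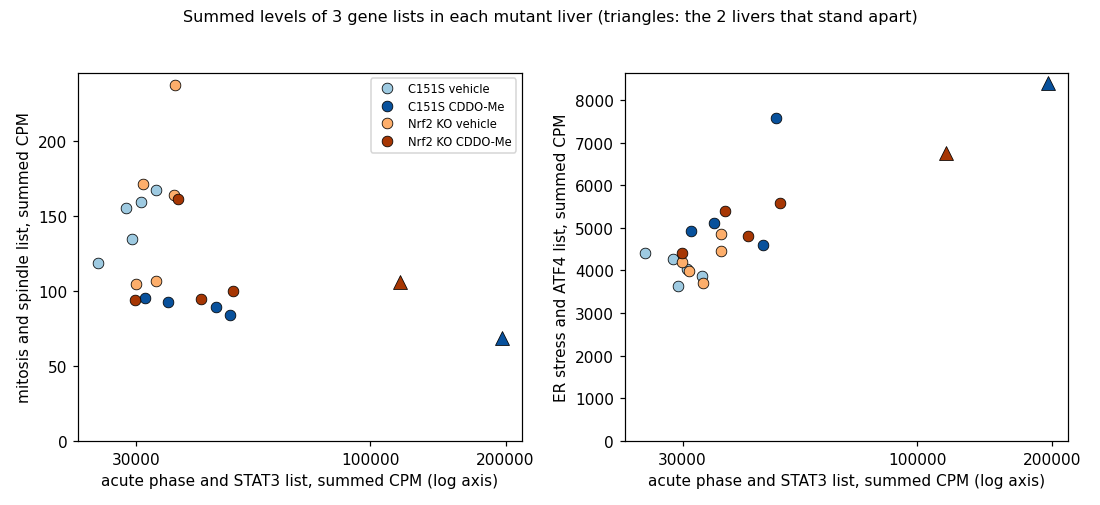
Summed CPM of the mitosis and spindle list (left, y axis) and of the endoplasmic reticulum stress and ATF4 list (right, y axis) against that of the acute phase and STAT3 list (x axis, log scale), 1 point for each of the 20 mutant livers. The 2 livers that stood apart (triangles) lie at 196049 and 116138 CPM of acute phase genes. All treated C151S livers lie at or under 95.4 CPM of mitosis genes, against 119 CPM and more in vehicle-treated C151S livers. Nrf2-knockout livers overlap, at 104 to 237 CPM after vehicle and 94.1 to 162 CPM after CDDO-Me.

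Among the 13 other genes that fell, 3 had treated and vehicle livers that did not overlap in either genotype. Over all genes, 4 were separated in this way upward (0.0266%) and 5 downward (0.0333%), and 5 of these 9 were called, Dnajb11, Psat1, Veph1, Tfap4, and F11. Veph1 (ENSMUSG00000027831.9, chromosome 3, 66053558 to 66296837), a membrane-associated protein with a pleckstrin homology domain, had the lowest p of all genes. In C151S livers it stood at 0.872, 1.47, 0.791, 0.813 and 0.547 CPM after vehicle and 0.136, 0.333, 0.439, 0.396 and 0.270 CPM after CDDO-Me. Nrf2-knockout livers had 0.669, 0.795, 0.717, 0.957 and 0.741 and 0.239, 0.0968, 0.383, 0.104 and 0.236 CPM. These are 20 to 49 counts after vehicle and 3 to 16 counts after CDDO-Me. For Veph1 the pooled log2 fold change came to -1.66 with an SE of 0.24 (adjusted p = 0.0152, edgeR's quasi-likelihood test), and Veph1 was called in 28 of the 32 other fits.

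Tfap4 (ENSMUSG00000005718.8, chromosome 16, 4544661 to 4559854) encodes a helix-loop-helix factor that binds E-boxes. It stood at 3.62, 4.28, 3.70, 2.96 and 3.80 CPM in vehicle-treated and 2.78, 2.72, 2.54, 2.66 and 2.40 CPM in treated C151S livers. Values of Nrf2-knockout livers were 5.38, 4.02, 3.89, 3.66 and 5.53 and 3.48, 2.40, 2.54, 2.54 and 2.51 CPM. All 10 treated livers were below the vehicle livers of their genotype, with -0.61 log2 units between the group means (SE 0.11, adjusted p = 0.0312, edgeR's quasi-likelihood test). F11, coagulation factor XI made by hepatocytes, showed the same separation, with 126 to 134 CPM after vehicle and 67.9 to 114 CPM after CDDO-Me in C151S and 94.5 to 165 and 43.8 to 93.5 CPM in Nrf2-knockout livers (log2 fold change -0.69, adjusted p = 0.0333). Atg16l2, a relative of the autophagy protein ATG16L1, fell by 0.68, and Tprkb, a subunit of a complex that modifies transfer RNA, by 0.51 on the log2 scale. In each of these 2 genes, 9 of 10 treated livers were below all vehicle livers of their genotype. The noncoding transcripts Gm34333, Gm32063, and Lockd, which lies beside Cdkn1b, fell by 1.45, 1.39, and 2.19 on the log2 scale. Fam198a (-1.47), Ceacam2 (-1.68), Gm37729 (-1.11), Gm3839 (-0.79), and Tmem71 (-0.59) make up the rest. Ceacam2, a cell adhesion molecule that shares sequence with Ceacam1, was at 1 to 3 counts in treated Nrf2-knockout livers, at or under the floor.

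No gene of the other lists was called in the pooled livers by edgeR's quasi-likelihood test, and the following are values. DESeq2 called 2 metallothionein and zinc genes higher, 2 male-biased genes lower, and 1 gene each of the interferon, PPARα, lipogenesis, CAR and PXR, and heme and iron lists. In the edgeR fits without 1 liver at most 2 genes of any of these lists were called. The median of 43 NRF2 targets was -0.00231, with 3 higher and 3 lower at an unadjusted p under 0.05, and Htatip2 had the lowest p of them (log2 fold change 0.26, adjusted p = 0.116, edgeR's quasi-likelihood test). Of 9 metallothionein and zinc genes, Mt2, which binds zinc and copper, stood at 1940.0, 227, 113, 139 and 227 CPM in treated C151S and 90.5, 1066, 96.1, 45.5 and 253 CPM in treated Nrf2-knockout livers, against 28.5 to 67.3 and 6.67 to 105 CPM after vehicle. The groups were apart in C151S livers and overlapped in Nrf2-knockout livers. Mt2 had a pooled log2 fold change of 2.96 with an SE of 0.66 (adjusted p = 0.0543) and 1.49 without both livers that stood apart, and the median of the list was 0.14. For immediate early and AP-1 genes the median was 0.15, with -0.58 in C151S and 0.58 in Nrf2-knockout livers. Klf6 had the lowest p of these (log2 fold change -0.47, adjusted p = 0.197), and Fos had a log2 fold change of 0.65 ± 0.76 (SE).

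Over all genes tested, 7709 of 15020 were negative. At an unadjusted p under 0.05, 8.07% of them were lower and 10.3% higher. Of 32 male-biased genes that depend on growth hormone and STAT5, 29 were negative, with a median of -0.40, and 12 were lower at an unadjusted p under 0.05. C6, a complement component, had the lowest p (-0.54 on the log2 scale, adjusted p = 0.108, edgeR's quasi-likelihood test), and Elovl3, a fatty acid elongase chosen after its values were seen, had a log2 fold change of -1.83. The 15 female-biased genes had a median of 0.26, with Acot4 at 0.60. Of 36 interferon response genes 27 were negative, with a median of -0.20, and Ifit3, an antiviral protein, stood at -0.54 (adjusted p = 0.0564). In fatty acid oxidation under PPARα, 11 of 37 genes were higher at an unadjusted p under 0.05, with a median of 0.14, and the carnitine enzyme Crat had the lowest p at 0.60 (0.30 without both livers that stood apart). In lipogenesis the median was -0.04, with the desaturase Scd1 at -1.09 (adjusted p = 0.0987). The medians were 0.08 for cholesterol synthesis, -0.07 for bile acids (Slco1a1 -0.88), -0.06 for gluconeogenesis and glycogen (Pcx 0.32, and 0.13 without both livers), and 0.14 for glucocorticoid responsive genes (Errfi1 0.30). They were 0.07 for AhR targets (Ugt1a6a -0.48), 0.16 for CAR and PXR targets (Cyp3a13 0.72, and 0.42 without both livers), 0.06 for heme and iron genes (the iron hormone Hamp 0.79), 0.05 for p53 targets (Ei24 0.23, and 0.15 without both livers), -0.22 for extracellular matrix genes (Lama3 -0.45), and 0.00302 for clock genes (Nr1d1 -0.80, Arntl -0.31 ± 0.82, SE, and -0.997 without both livers).

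**Figure D5:**
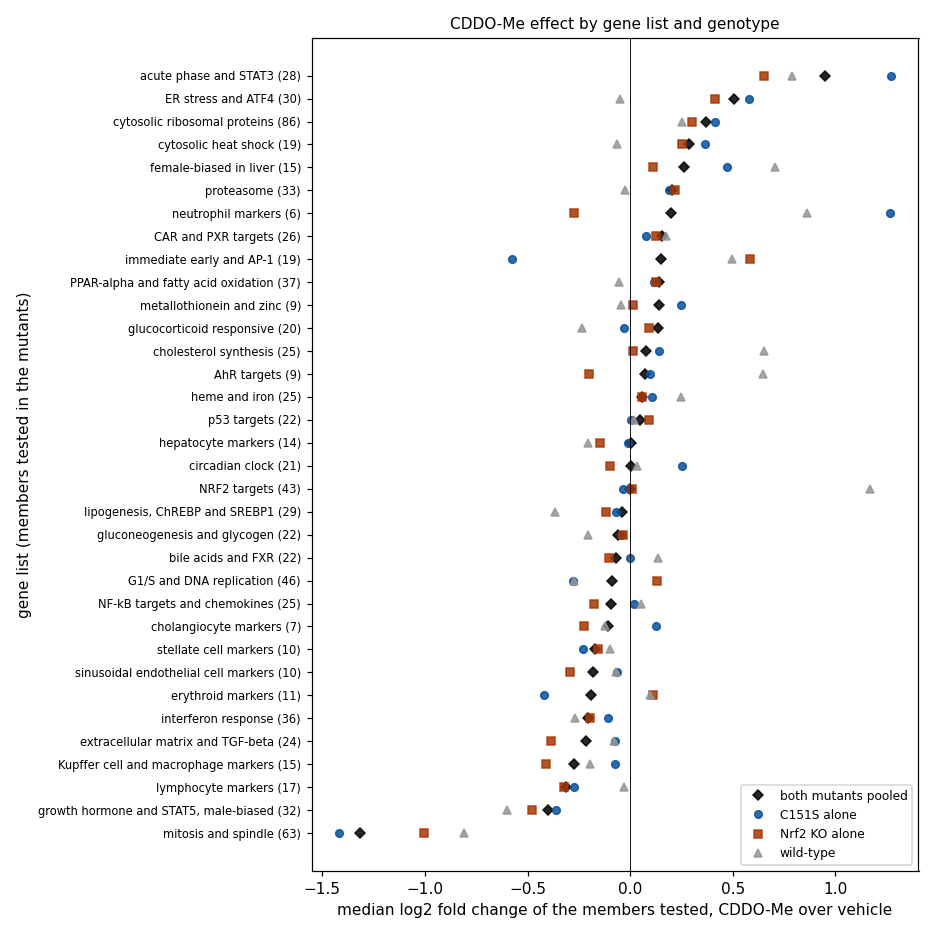
Median log2 fold change of CDDO-Me over vehicle (x axis) of each gene list (y axis, with the number of members tested in the mutants) in both mutants pooled, in each mutant alone, and in wild-type. The mitosis list lies lowest and the acute phase list highest in the pooled mutants, and NRF2 targets lie near 0 in the mutants and at 1.17 in wild-type.

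No marker of hepatocytes or other liver cells was called by edgeR's quasi-likelihood test, whereas DESeq2 called 1 hepatocyte marker higher and 1 lower, 2 lymphocyte markers lower, and 2 erythroid markers lower. The medians of their lists in the pooled livers were 0.00367 for hepatocytes, -0.27 for Kupffer cells and macrophages (14 of 15 negative), -0.18 for sinusoidal endothelial cells (10 of 10 negative), -0.17 for stellate cells (9 of 10 negative), -0.11 for cholangiocytes, -0.19 for erythroid cells, 0.20 for neutrophils, and -0.31 for lymphocytes (15 of 17 negative, 6 lower at an unadjusted p under 0.05). The genes with the lowest p were the hepatocyte product Ttr (log2 fold change -0.56, adjusted p = 0.0564, edgeR's quasi-likelihood test), Clec4f (-0.30), Stab2 (-0.48), Pdgfrb (-0.37), Sox9 (-0.48), Slc4a1 (-1.43), Ngp (-1.51), and the B cell gene Cd79b (-0.76), each from the list in the same place of that order. Over all genes tested, 7709 of 15020 were negative, and 8.07% were lower at an unadjusted p under 0.05. The summed level of lymphocyte markers was 22.1 to 46.5 CPM after vehicle and 23.6 to 30.4 CPM after CDDO-Me in C151S livers and 24.9 to 65.1 and 20.98 to 40.1 CPM in Nrf2-knockout livers. For macrophage markers it was 286 to 542 and 298 to 573 CPM in C151S and 307 to 660.2 and 238 to 513 CPM in Nrf2-knockout livers. These levels overlapped between treated and vehicle livers of each genotype, and their part in the fall of mitosis genes was not tested.

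Whether the 2 genotypes differ in their response was tested as an interaction. No gene passed an adjusted p of 0.05 with edgeR's quasi-likelihood test (0.00% of 15020), 507 genes had an unadjusted p under 0.05 (3.38%), and 2 genes passed with DESeq2. In the fits without 1 liver, 2 genes passed without CDDO-Me-treated C151S replicate 1 and 1 without vehicle-treated Nrf2-knockout replicate 3, and none in the others. This does not show that the genotypes respond alike, since each has 5 treated and 5 vehicle livers. Of the 40 called genes 35 were tested in both genotypes alone, and all 35 had the same direction in each. The pooled fit that chose these genes used the same livers and favours genes with 1 direction in both genotypes. The agreement therefore does not show that the genotypes share the effect. In C151S livers alone 13 genes were called (2 higher and 11 lower) and in Nrf2-knockout livers alone none was (edgeR's quasi-likelihood test, with 1136 of 14474 genes at an unadjusted p under 0.05, and no other tool run). Among the 5 genes with the lowest p of the interaction was Gm42031, at 0.0969, 0.419, 0.128, 0.586 and 0.602 CPM after vehicle and 1.83, 7.71, 19.1, 10.54 and 17.8 CPM after CDDO-Me in C151S livers. In Nrf2-knockout livers it stood at 0.294, 0.626, 0.804, 0.891 and 0.236 and 0.452, 1.31, 0.575, 1.53 and 0.649 CPM. Treated and vehicle livers were apart in C151S and overlapped in Nrf2-knockout livers, and the interaction had an adjusted p of 0.198 (unadjusted p = 3.96e-05, edgeR's quasi-likelihood test). The other 4 were Plcd3, a phospholipase C, with log2 fold changes of 2.75 in C151S and -0.58 in Nrf2-knockout livers, Frmd8os with -0.89 and 0.84, and Gm4316 and the mitochondrial transfer RNA mt-Te, which were tested alone in C151S livers only, with 2.30 and -0.92. In Nrf2-knockout livers mt-Te was at 0 to 4 counts after vehicle, near the floor, and at 4 to 15 counts after CDDO-Me. There 4 of 5 treated livers lay above all vehicle livers. Gm4316 was at 4 to 13 and 5 to 8 counts in these groups.

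The wild-type livers give the same measure in mice that the pooled comparison did not use. In them 377 of 13697 genes tested were called (2.75%), and 2327 had an unadjusted p under 0.05 (17.0%). Of the 40 genes, 27 were tested in wild-type livers, 23 of the 27 had the same direction, 19 had it at an unadjusted p under 0.05, and 10 were called. The 4 called higher in both were Lcn2, Fgl1, Serpina3m, and Rom1, with wild-type log2 fold changes of 4.25, 1.49, 1.01, and 0.55. The 6 called lower in both were Kif20a (-1.28), Hmmr (-2.64), Nusap1 (-1.74), Atg16l2 (-0.79), F11 (-0.53), and Gm32063 (-1.22). The remaining 6 that rose had wild-type log2 fold changes of 0.90 (Psat1), 0.78 (Apoa4), 0.40 (Cxcl1), 0.23 (Tuba1c), -0.03 (Dnajc3), and -0.18 (Dnajb11). The other 13 genes, all of them lower in the mutants, did not pass the filter in wild-type livers. In the fit of all 30 livers 36 of the 40 had the same direction in wild-type as in the mutants, with Ccnb1 at -3.25 and Cenpf at -1.82 on the log2 scale.

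For 89 of 15010 genes (0.593%) the wild-type response differed from the mean mutant response with edgeR's quasi-likelihood test at an adjusted p under 0.05, and of the 40 genes 1 did, Tfap4. In wild-type livers Tfap4 stood at 2.94, 3.60, 3.41, 4.37 and 2.97 CPM after vehicle and 5.21, 5.19, 3.17, 2.90 and 3.997 CPM after CDDO-Me, so that the groups overlapped, and its log2 fold change there exceeded that in the mutants by 0.85 ± 0.20 (SE, adjusted p = 0.0396). Dnajb11 came next among genes that rose, with 99.1, 140.0, 119, 111 and 134 CPM after vehicle and 115, 126, 88.4, 105 and 103 CPM after CDDO-Me in wild-type livers and a difference of -0.89 ± 0.23 that did not pass (adjusted p = 0.0887). Its vehicle level in wild-type livers lay above that of the vehicle-treated mutants. The next lowest p belonged to Gm34333, Dnajc3, and Veph1, with differences of 1.48, -0.64, and 1.396 that did not pass. The 40 genes were chosen for their effect in the mutant livers, which this comparison uses again. That choice favours a difference from wild-type, so the differences of these genes are no independent support. In wild-type livers alone Tfap4 had a log2 fold change of 0.23 (unadjusted p = 0.243, edgeR's quasi-likelihood test). The wild-type median of the endoplasmic reticulum stress and ATF4 list was -0.05, and its summed vehicle level was 5885 to 7985 CPM in wild-type against 3632 to 4418 CPM in C151S and 3705 to 4845 CPM in Nrf2-knockout livers. The wild-type medians were -0.02 for the proteasome, -0.06 for heat shock genes, 0.79 for acute phase genes, and -0.81 for 35 mitosis genes tested there, of which 12 were called lower. Wild-type groups hold 5 livers each and the pooled mutant groups 10, so counts of calls cannot be set against each other.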

How the data were processed

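Polyadenylated RNA of each liver was made into strand-specific libraries (TruSeq Stranded mRNA) and sequenced as pairs of 50-base reads. The authors assessed read quality with fastp without removing reads or bases, aligned reads with STAR 2.7.7 to mm10 with GENCODE M23, and deposited raw counts of uniquely placed reads per gene on the second strand. The submitters' processing notes also name edgeR 3.36.0. Every library has 1 column, and 0 columns were left unmapped. Symbols and positions come from GENCODE M21 (GRCm38), in which 55154 of 55335 gene IDs were found.

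From the counts, edgeR 4.0.16 in R 4.3.3 (filterByExpr by group, TMM normalization, quasi-likelihood test, Benjamini-Hochberg adjustment over all genes tested) was fitted to the 20 mutant libraries with genotype and treatment as terms. Each genotype was also fitted alone, the interaction in the 20 libraries, and the wild-type difference in all 30. The authors' isolation dates are not given in the sources used here and could not be a term. Scripts were tested on simulated data. Libraries come from separate mice, so that p-values measure the spread between mice, and no pair of a group agreed within sampling noise. A gene was called at an adjusted p under 0.05 with a log2 fold change of 0.5 or more in size. CPM were scaled by TMM over all 30 libraries. Reads carried no molecular identifiers, and the floor of 3 counts (0.0652 to 0.104 CPM in the mutants) covers counting error only.

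Named genes were the 12 with the lowest p called in each direction, the called members of each list (the 4 with the lowest p where there were more) or else its member with the lowest p, the 5 with the lowest p of the interaction, the 5 called genes with the lowest p of the wild-type difference, and Nfe2l2, Keap1, Nqo1, Gstm1, Gpx2, Cbr3, Srxn1, Fos, and Arntl. The remaining called genes are named to account for every call. Gpx2 did not pass the filter, and 1 gene that the rule names is not reported here. The comparison and the 33 gene lists were chosen with earlier results of these data known, and 5 listed genes were not found. Alternatives were DESeq2 1.42.0, upper-quartile normalization, the newer quasi-likelihood fit of edgeR, other count filters, no fold threshold, 1 surrogate variable (sva 3.50.0), a fit of all 30 libraries, the high or low Arntl side of each liver as a covariate or alone, the replicate number as a block, and leaving out each library.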

Additional observations from a re-analysis of the deposited data

Results flagged for a closer look

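A liver was marked where its distance to the nearest of the other 4 of its group exceeded 0.71 of the group's range (Dixon's critical value for 5). This held in 19 of the 252 groups tested, and chance marks about 1 in 20 groups. CDDO-Me-treated Nrf2-knockout replicate 2 was highest for Serpina3m (0.862), Ei24 (0.845), Cyp3a13 (0.797), and Pcx (0.72) and lowest for Nr1d1 (0.882) and Ifit3 (0.711). CDDO-Me-treated C151S replicate 1 was highest for Mt2 (0.753) and lowest for Nfe2l2 (0.76). Other treated livers were replicate 2 of C151S, highest for Kif18b (0.936), and replicates 1 and 4 of Nrf2-knockout, highest for Tfap4 (0.844) and lowest for Hamp (0.763). Among vehicle-treated C151S livers, replicate 4 was lowest for Crat (0.811) and Kif18b (0.724) and highest for Slco1a1 (0.854), replicate 3 was lowest for Ugt1a6a (0.86), and replicate 5 was highest for Srxn1 (0.72). Among vehicle-treated Nrf2-knockout livers, replicate 5 was lowest for Hspb8 (0.882) and Mt2 (0.733), and replicate 4 was highest for Fgl1 (0.822).

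The response of 6 named genes differed between wild-type and mutant livers at an adjusted p under 0.05 (edgeR's quasi-likelihood test), with a wild-type minus mutant log2 difference of 5.08 for Cbr3, 2.93 for Nqo1, 2.36 for Gstm1, 2.16 for Srxn1, 1.12 for Htatip2, all of them NRF2 targets, and 0.852 for Tfap4. In the pooled mutants the log2 fold changes of the first 5 were 0.18, 0.22, 0.07, 0.03, and 0.26, and none passed. Tfap4 was named because the pooled mutants called it, and the difference reuses those livers, which favours it.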

How the results depend on the processing

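The 40 calls kept their direction under all 32 alternatives in which they were tested, and their number did not hold. The alternatives reuse the livers that chose the genes, which favours a kept direction. In place of 40 genes (10 higher and 30 lower), DESeq2 called 240 (93 and 147), the fit of all 30 libraries 270 (113 and 157), the Arntl side as covariate 65 (23 higher), a minimum of 10 counts in every library 14 (3 and 11), 1 surrogate variable 4 (0 and 4), each Arntl side alone 0 (0 and 0), and the fit without both livers that stood apart, chosen after seeing the data, 2 (0 and 2). The newer edgeR fit called 16 higher and no filter 21. Without 1 library, 0 to 234 genes were called, 0 to 94 higher and 0 to 140 lower. With the replicate block 37 were called (7 and 30), 26 of them among the 40. Replicate numbers mark no shared animal, and same-numbered deviations had correlations of -0.336 to 0.489, over 0.1 in 5 of 10 pairs, with 3 of the samples closest to their own number. The interaction called 2 genes with DESeq2 and 2 in the fit of all 30 libraries, in place of 0, and 0 to 2 without 1 library. The wild-type difference called 65 to 108 without 1 library, in place of 89.

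Single genes outside the calls changed sign. The value for log2 fold change of Frmd8os (0.01) was -0.0290 with upper-quartile normalization, -0.0174 in the fit of all 30 libraries, -0.18 in the high Arntl side alone and -0.0909 to 0.10 without 1 library. Likewise log2 fold change of Srxn1 (0.03) was -0.00958 with upper-quartile normalization, -0.00659 with 1 surrogate variable, -0.0588 in the low Arntl side, -0.0412 without both livers and -0.0147 to 0.0652 without 1 library. That for log2 fold change of Arntl (-0.31) was 0.65 with 1 surrogate variable, 0.0466 with its side as covariate, 0.37 in the low side and -0.72 to 0.16 without 1 library. In the high Arntl side alone, log2 fold change of Gstm1 was -0.41 (-0.00139 to 0.14 without 1 library), log2 fold change of mt-Te -0.23 and log2 fold change of Fos -0.0364. The causes were not tested. Some mitosis genes, such as Ccnb1 at 1 to 15 counts in treated mutants, lie near the floor, which limits their precision.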
